A study of Homo sapiens with 6 samples.

Results

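The genes described here are *SQSTM1*, which encodes p62, with the autophagy receptor genes *NBR1*, *OPTN*, *TAX1BP1* and *CALCOCO2*, the KEAP1-NRF2 pair *KEAP1* and *NFE2L2*, and the signaling genes *TRAF6* and *TBK1*. They were taken by symbol from a table of raw counts, which held all 9 of them among 15924 symbols. The cells were WPMY-1, an established line of human prostate stromal cells with myofibroblast features. One group of 3 libraries came from cells given 24 mM lactate for 48 h (lactate), and the other group of 3 from cells not given it (control). All 6 libraries are from the 1 cell line, and no genetic change made for these experiments is named. The methods of the study describe the addition as lactic acid brought to a mildly acidic pH in HEPES medium free of bicarbonate and CO2, while the sample labels describe culture in CO2. The pH of the control medium was not given for these libraries, so acidity and lactate cannot be told apart in them. The study reports, from immunoblots of p62 protein, that acidified medium alone was not enough to lower p62. Of the stromal markers, 9 of 9 had enough counts to be tested, led by *VIM* with a mean of 2676 CPM in lactate cells and 2797 CPM in control cells. Some markers moved with the treatment. 1 stromal marker fell (*S100A4*, 41.2 CPM with lactate and 127 CPM in controls, log2 fold change -1.63, edgeR adjusted p = 0.0135). 2 of 5 tested smooth muscle markers rose, namely *TAGLN* (546 CPM with lactate and 183 CPM in controls, log2 fold change 1.57, edgeR adjusted p = 0.00618) and *CNN1* (12.5 CPM with lactate and 5.83 CPM in controls, log2 fold change 1.09, edgeR adjusted p = 0.0253). The 5 tested smooth muscle markers summed to between 1949 and 3066 CPM in lactate libraries and between 1556 and 2544 CPM in control libraries. The largest was *TPM2*, which was not called (1360 CPM with lactate and 1458 CPM in controls, log2 fold change -0.10, edgeR adjusted p = 0.830). Of 6 epithelial markers in the table only 2, *KRT15* and *CLDN4*, could be tested. These 2 summed to between 3.64 and 4.73 CPM in lactate libraries and between 2.44 and 3.46 CPM in control libraries. *EPCAM*, *CDH1*, *KRT5* and *ESRP1* did not pass 14 counts in any library. Of the endothelial markers, 0 of 3 could be tested. Of the 4 immune markers in the table, *PTPRC*, which defines leukocytes, did not pass 12 counts in any library and *CD3E* did not pass 3. The lysosomal protein gene *CD68*, which is not limited to macrophages, rose (91.1 CPM with lactate and 57.4 CPM in controls, log2 fold change 0.67, edgeR adjusted p = 0.0295). *CD14* was rare and not called (1.12 CPM with lactate and 1.40 CPM in controls, log2 fold change -0.34, edgeR adjusted p = 0.634). The part of these marker shifts in the results was not tested. CPM are counts scaled to the size of the library with the TMM factors of edgeR.

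p62 binds ubiquitinated cargo through its UBA domain, forms filaments through its PB1 domain and reaches the autophagosome by binding LC3 and its relatives, so that it is degraded together with its cargo. NBR1, optineurin, TAX1BP1 and NDP52 (the product of *CALCOCO2*) are soluble receptors that bind the same kind of cargo and the same ATG8 proteins, and TBK1 phosphorylates several of them and strengthens that binding. p62 also holds KEAP1, the adaptor that marks the transcription factor NRF2 (product of *NFE2L2*) for degradation, and it binds TRAF6, a ubiquitin ligase upstream of NF-κB. *SQSTM1* is in turn a target gene of NRF2.

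The windows from 250 bases before to 50 bases after each annotated start were read for all 9 genes, since these genes were compared at the level of mRNA (RefSeq starts, GRCh38.p14, 16 windows in all). 4 motifs were searched on both strands. The AP-1 motif TGANTCA was found at 0 of 9 genes, against 9.37% of all genes with such a window. The antioxidant response element core TGACNNNGC, the motif bound by NRF2 with a small MAF protein, was found at 2 of 9 genes (16.1% of all genes). The E-box TCACGTG, a core of the sites bound by TFEB, was found at 1 of 9 (4.49% of all genes). The GC box GGGCGG was found at 8 of 9, all but *TBK1* (48.3% of all genes). No 2 of these motifs share a match, and only 1 pair of GC boxes, at the middle start of *SQSTM1*, shares a base. The windows do not reach farther upstream, where enhancers and other sites of *SQSTM1* may lie. The study reports binding sites for FOS and JUN factors in the *SQSTM1* promoter and ties the lactate response to such a site. Whether those sites fall inside these windows was not tested, so the absence of a match here does not bear on them. The matches of the first 3 motifs, and the GC boxes at the most downstream of the 3 *SQSTM1* starts, are printed 5′ to 3′ on the strand of the gene, with the match in capitals and 10 flanking bases on each side. The position given is that of the match.
CALCOCO2, response element core at chr17:48830906-48830914: cgctcctgggGCCCGGTCAcctgaacact
KEAP1, response element core at chr19:10502817-10502825: acttttattgTGACACGGCgggcgcccgg
KEAP1, response element core at chr19:10502794-10502802: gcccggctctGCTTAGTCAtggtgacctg
TBK1, E-box at chr12:64452088-64452094: cggccgtcggTCACGTGgcctccggcc
SQSTM1, GC box at chr5:179820782-179820787: ggcctctgcaGGGCGGctctcgcgcc
SQSTM1, GC box at chr5:179820814-179820819: acggtggcggGGGCGGggagggcgcg
SQSTM1, GC box at chr5:179820837-179820842: gcgagagactCCGCCCctctcgaggc
SQSTM1, GC box at chr5:179820854-179820859: tctcgaggcgGGGCGGggcctccgcg
The *KEAP1* matches lie at the downstream start of that gene, and the upstream start had none of the first 3 motifs. A match of letters is a description and does not show that a factor binds there.

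Replicate numbers here only name the libraries in accession order and pair nothing between the groups. The libraries held 20392320 to 24055634 counts with lactate and 20238653 to 46505372 in controls, the deepest being control replicate 1. Each library also had a trend of its own across genes with the GC content of their transcripts. The Spearman correlation of a gene's deviation from its mean with its GC content was 0.62, 0.01 and 0.26 in lactate replicates 1, 2 and 3, and 0.37, -0.59 and -0.71 in control replicates 1, 2 and 3. The trend therefore differed within the groups as well as between them. It matters here because 7 of the 9 genes have transcripts of 39.3% to 48.0% GC, whereas *SQSTM1* has 58.0% and *KEAP1* 60.3% (longest GENCODE transcript). A second fit, with the GC and length trend taken out of each library, is therefore given beside the first. A fit of the 4 libraries without replicate 1 of both groups is also given, with the trend kept. There the GC correlations were 0.01 and 0.26 with lactate and -0.59 and -0.71 in controls. Trend and treatment cannot be told apart in that fit.

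**Figure D1:**
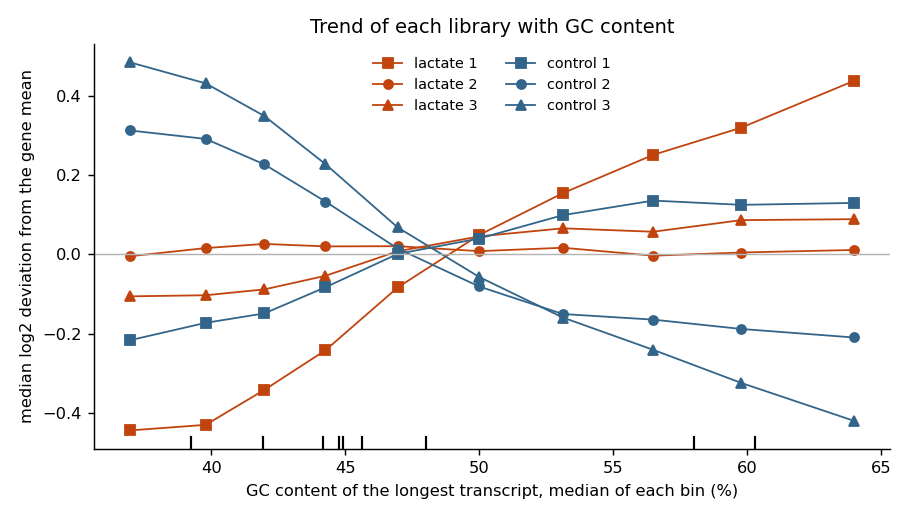
Median deviation of a library from the gene mean (log2, y axis) in 10 bins of genes by GC content of the longest transcript (%, x axis), with 1 line per library and short ticks on the x axis at the GC content of the 9 genes. In the bin with the highest GC content, lactate replicate 1 lies at 0.44 and control replicate 3 at -0.42, and the 2 libraries lie at -0.44 and 0.48 in the bin with the lowest.

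*SQSTM1* mRNA fell with lactate. The gene was at 739, 551 and 574 CPM in the lactate libraries, against 1526, 1131 and 1007 CPM in the control libraries. The highest lactate library lay below the lowest control library, and replicate 1 was the highest of its group in both. The means were 621 ± 103 CPM with lactate and 1221 ± 271 CPM in controls (SD, n = 3 each), and the log2 fold change was -0.97 (95% interval -1.42 to -0.53, edgeR adjusted p = 0.0220). Lactate cells thus held 50.9% of the mean control level. In the order of all 13188 tested genes by mean CPM, *SQSTM1* stood 230th in lactate cells and 71st in control cells, and 454 genes had a lower fold change. Its share of all counts averaged 0.0614% with lactate and 0.122% in controls.

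After removal of the trend *SQSTM1* was at 606, 542 and 544 CPM in lactate libraries, against 1423, 1297 and 1233 CPM in control libraries. Both groups were tighter than before and the distance between them was larger, with a log2 fold change of -1.22 (95% interval -1.43 to -1.02, edgeR adjusted p = 2.17e-04). With 1 library left out the first fit lost its call in 3 of 6 cases, namely without control replicate 2 (log2 fold change -1.03, edgeR adjusted p = 0.0850), without lactate replicate 2 (-0.90, edgeR adjusted p = 0.0670) and without lactate replicate 3 (-0.92, edgeR adjusted p = 0.122). *SQSTM1* spans chr5:179806398-179838078 on the plus strand of GRCh38, and 1687 of its 7654 annotated exonic bases are overlapped by genes on the other strand. *MGAT4B*, the one of these with counts in the table, averaged 346 CPM with lactate and 262 CPM in controls (log2 fold change 0.40, edgeR adjusted p = 0.204). Whether strand was used in counting was not given, so reads of the shared bases cannot be assigned to one of the genes.

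**Figure D2:**
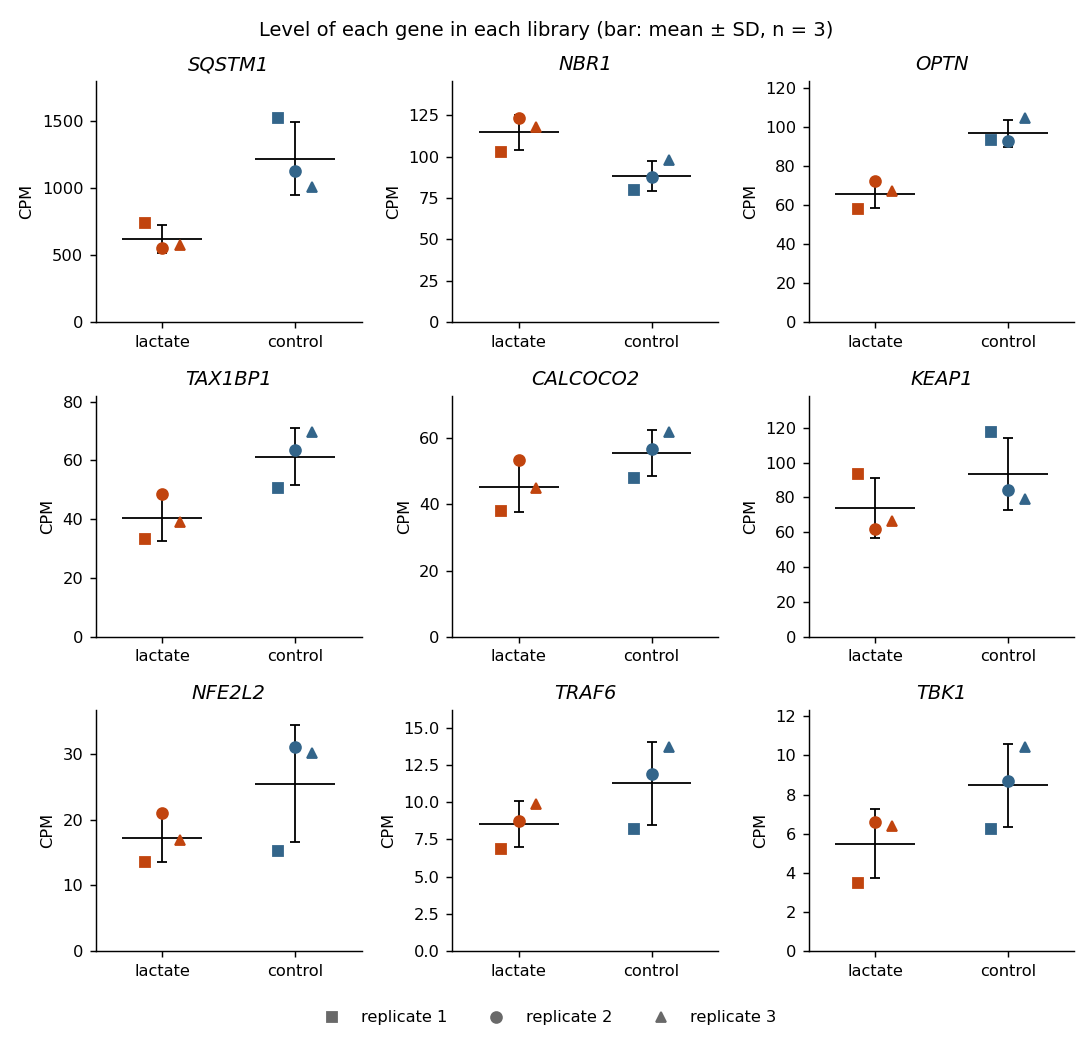
CPM (y axis, from 0, a scale of its own in each panel) of the 9 genes in the 3 lactate and the 3 control libraries, with a bar for the mean ± SD and the marker shape giving the replicate number. *SQSTM1*, *OPTN* and *TAX1BP1* have every lactate library below every control library, and *NBR1* has every lactate library above every control library.

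The other receptor genes did not follow *SQSTM1* as a group. *OPTN*, whose product optineurin clears damaged mitochondria and bacteria, fell, *TAX1BP1* and *CALCOCO2* had negative fold changes that missed the threshold, and *NBR1* had a positive one that missed it. *OPTN* was at 58.2, 72.5 and 67.3 CPM with lactate, against 93.3, 92.8 and 105 CPM in controls. The groups did not overlap, and the log2 fold change was -0.56 (95% interval -0.89 to -0.23, edgeR adjusted p = 0.0481). This call was close to the threshold: it was held in 8 of 16 alternatives, and in 1 of the 6 that left out a single library. The fold change kept its sign in all 16 alternatives, from -0.63 to -0.41.

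*NBR1*, the receptor that is closest to p62 in domain structure and binds it through PB1, was at 103, 124 and 118 CPM with lactate, against 79.6, 87.5 and 97.8 CPM in controls. Every lactate library was above every control library, although lactate replicate 1 and control replicate 3 were only a few CPM apart. The log2 fold change was 0.38 (95% interval 0.05 to 0.71, edgeR adjusted p = 0.139). With the trend removed the libraries were at 123, 119 and 119 CPM with lactate and at 85.5, 81.2 and 84.8 CPM in controls, and the gene passed the threshold there (log2 fold change 0.52, edgeR adjusted p = 0.00266).

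*TAX1BP1*, a receptor that also restrains inflammatory signaling, was at 33.3, 48.6 and 39.2 CPM with lactate, against 50.6, 63.6 and 69.5 CPM in controls. The groups lay close to each other without overlapping (log2 fold change -0.60, 95% interval -1.03 to -0.17, edgeR adjusted p = 0.0840). DESeq2 called it (adjusted p = 0.0315), as did edgeR with the trend removed (log2 fold change -0.60, adjusted p = 0.0202). *CALCOCO2*, which encodes the receptor for invading bacteria and mitochondria NDP52, was at 38.0, 53.3 and 44.8 CPM with lactate, against 47.9, 56.8 and 61.7 CPM in controls. Its groups overlapped (log2 fold change -0.29, 95% interval -0.69 to 0.11, edgeR adjusted p = 0.318), and with the trend removed the estimate was -0.12 (95% interval -0.33 to 0.09, edgeR adjusted p = 0.400).

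Levels were then set per length of the longest transcript, so that the receptors could be compared with each other. *SQSTM1* made up 81.2%, 71.5% and 74.3% of the summed level of the 5 receptors in lactate libraries, against 88.1%, 83.2% and 79.9% in control libraries. Lactate replicate 1 lay within the control range, and the difference of -8.05 percentage points was not past the threshold (exact two-sided permutation test, p = 0.2, where 0.1 is the smallest value that 3 against 3 libraries allow). The groups separated once the trend was removed, at 71.6% to 75.5% with lactate and 84.5% to 86.7% in controls, and the test reached its smallest value (exact permutation p = 0.1). The share of *NBR1* averaged 9.10 ± 1.63% with lactate and 4.02 ± 1.02% in controls (SD, n = 3 each), and the shares of *OPTN*, *TAX1BP1* and *CALCOCO2* averaged 6.93%, 3.72% and 4.57% with lactate and 5.81%, 3.25% and 3.20% in controls. A share depends on the fall of *SQSTM1* itself: the summed level of the other 4 receptors averaged 65.7 ± 8.23 CPM per kb with lactate and 76.8 ± 7.85 CPM per kb in controls (SD, n = 3 each), and of the 4 only *NBR1* had the higher mean level with lactate.

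*NBR1* and *OPTN* traded places. Per length, the ratio of *NBR1* to *OPTN* was 1.34, 1.29 and 1.32 in the lactate libraries, against 0.645, 0.713 and 0.705 in the control libraries. The 2 transcripts are nearly equal in GC content (44.9% and 44.8%), and with the trend removed the ratio ran from 1.26 to 1.40 with lactate and from 0.656 to 0.717 in controls. The level of *NBR1* was above that of *OPTN* in 3 of 3 lactate libraries and below it in 3 of 3 control libraries. This pair was chosen after its values were seen, so no test is given for it.

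*KEAP1* and *SQSTM1* encode partners and have transcripts of similar GC content and length, 2955 bases for *KEAP1* and 2986 bases for *SQSTM1*. The ratio of *SQSTM1* to *KEAP1* per length was 7.82, 8.83 and 8.56 in lactate libraries, against 12.9, 13.3 and 12.6 in control libraries. The means were 8.41 ± 0.523 with lactate and 12.9 ± 0.376 in controls (SD, n = 3 each), and the gap was larger than the spread within either group. The exact permutation test gave p = 0.1, the smallest that this design allows. Removing the trend left means of 8.54 with lactate and 12.7 in controls. Like the share, this ratio depends on the fall of *SQSTM1* itself and is not a separate result about the pair.

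**Figure D3:**
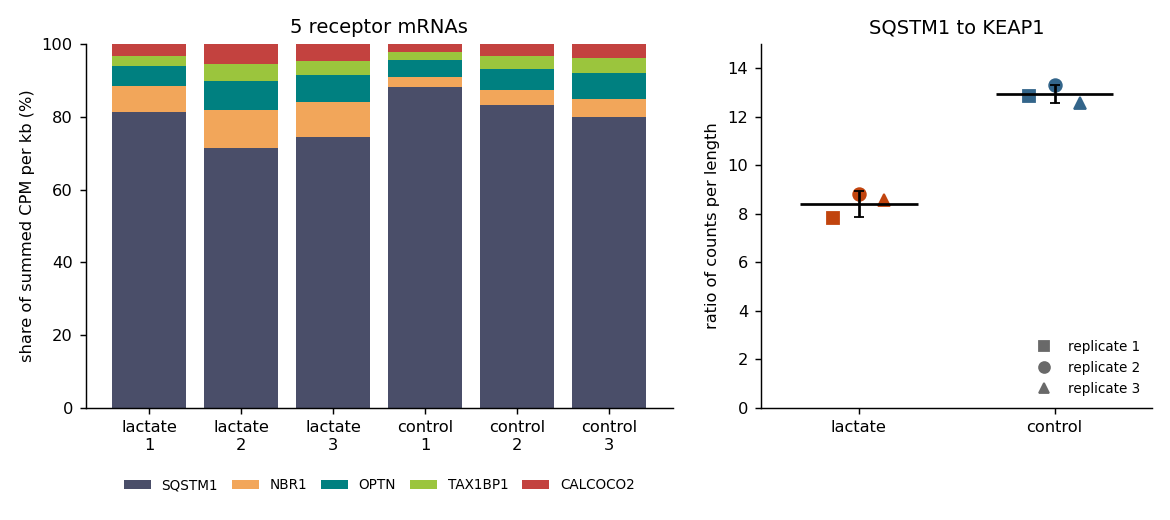
Left, share (%) of each of 5 receptor genes in their summed CPM per kb, 1 stacked bar per library with the lactate libraries on the left. Right, ratio of *SQSTM1* to *KEAP1* counts per length, from 0, in each library with the mean ± SD (n = 3 per group), where the lactate libraries run from 7.82 to 8.83 and the control libraries from 12.6 to 13.3.

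*KEAP1* itself was at 93.5, 61.7 and 66.3 CPM with lactate, against 117, 84.0 and 79.2 CPM in controls. Replicate 1 was the highest library in both groups, the groups overlapped, and the log2 fold change was -0.34 (95% interval -0.83 to 0.14, edgeR adjusted p = 0.330). With the trend removed the lactate libraries were at 73.8, 60.5 and 62.4 CPM and the control libraries at 109, 97.5 and 101 CPM. In that fit *KEAP1* passed the threshold (log2 fold change -0.65, 95% interval -0.88 to -0.41, edgeR adjusted p = 0.00411).

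*NFE2L2*, which encodes NRF2, was at 13.6, 21.0 and 16.9 CPM with lactate, against 15.2, 31.0 and 30.1 CPM in controls. Control replicate 1 lay within the lactate range and the other controls lay above it (log2 fold change -0.56, 95% interval -1.22 to 0.09, edgeR adjusted p = 0.242). Without control replicate 1 the gene passed the threshold (log2 fold change -0.83, edgeR adjusted p = 0.0290), and with the trend removed it did not (-0.44, edgeR adjusted p = 0.231). The ratio of *KEAP1* to *NFE2L2* per length was 6.63, 2.84 and 3.79 with lactate, against 7.45, 2.62 and 2.54 in controls. It was high in replicate 1 of each group and low in the other libraries, and the difference between the groups lay within their spread (means of 4.42 ± 1.97 with lactate and 4.20 ± 2.81 in controls, SD, n = 3 each, exact permutation p = 0.8).

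*TRAF6* and *TBK1* were the lowest of the 9 genes. *TRAF6* was at 6.89, 8.77 and 9.91 CPM with lactate, against 8.23, 11.9 and 13.7 CPM in controls (log2 fold change -0.40, 95% interval -0.95 to 0.16, edgeR adjusted p = 0.320). *TBK1* was at 3.47, 6.62 and 6.39 CPM with lactate, against 6.26, 8.71 and 10.4 CPM in controls (log2 fold change -0.61, 95% interval -1.28 to 0.06, edgeR adjusted p = 0.215). Both had overlapping groups, and in both genes replicate 1 was the lowest library of its group. The smallest number of counts behind these values was 66, for *TBK1* in lactate replicate 1. The log2 fold changes in the fit without the trend were -0.11 for *TRAF6* (95% interval -0.42 to 0.20) and -0.26 for *TBK1* (95% interval -0.69 to 0.17).

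Counted together, 2 of the 9 genes were called lower with lactate (*SQSTM1* and *OPTN*), where 3.88% of all 13188 tested genes were. None was called higher by edgeR (5.03% of all tested genes were). At an unadjusted edgeR p under 0.05, 1 was higher and 3 were lower (share of all tested genes not counted). DESeq2 called 3 lower and 0 higher, of 1057 genes lower and 1104 higher in all. In 3 of 9 every lactate library lay below every control library (15.3% of all tested genes), and in 1 of 9 above (17.3% of all tested genes). With the trend removed 4 of 9 were called lower (*SQSTM1*, *OPTN*, *TAX1BP1* and *KEAP1*, with a background of 11.5%) and 1 higher (*NBR1*, with a background of 10.0%). Without replicate 1 of both groups 8 of 9 were called lower and *NBR1* was called higher, but in that fit 24.9% of all tested genes were called lower and 22.9% higher. That fit also kept the GC trend, which there differed between the groups. The median log2 fold change of the 9 was -0.56, and that of all tested genes -0.02.

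**Figure D4:**
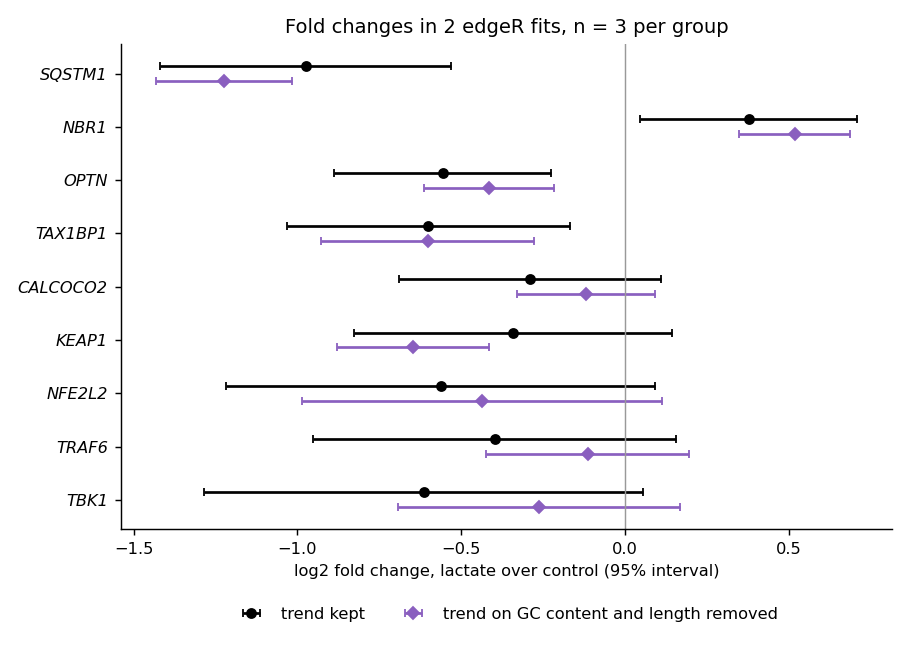
Log2 fold change of lactate over control (x axis) with its 95% interval for the 9 genes, in the fit that kept the library trends (circles) and in the fit with the GC and length trend removed (diamonds). *SQSTM1* lies at -0.97 and -1.22, *NBR1* is the only gene right of 0 in both fits, and the intervals of *CALCOCO2*, *NFE2L2*, *TRAF6* and *TBK1* include 0 in both.

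Per length of transcript, *SQSTM1* was far above the rest, with a mean of 208 CPM per kb in lactate cells and 409 CPM per kb in control cells. In lactate cells it was followed by *KEAP1* (25.0 CPM per kb), *NBR1* (24.6 CPM per kb), *OPTN* (18.7 CPM per kb), *CALCOCO2* (12.3 CPM per kb), *TAX1BP1* (10.0 CPM per kb), *NFE2L2* (6.02 CPM per kb), *TRAF6* (1.84 CPM per kb) and *TBK1* (1.69 CPM per kb). There the ranges of *KEAP1* and *NBR1*, of *CALCOCO2* and *TAX1BP1*, and of *TRAF6* and *TBK1* overlapped. In control cells the order after *SQSTM1* was *KEAP1* (31.6 CPM per kb), *OPTN* (27.6 CPM per kb), *NBR1* (19.0 CPM per kb), *TAX1BP1* (15.2 CPM per kb), *CALCOCO2* (15.1 CPM per kb), *NFE2L2* (8.92 CPM per kb), *TBK1* (2.60 CPM per kb) and *TRAF6* (2.44 CPM per kb). In control cells the ranges of *KEAP1* and *OPTN*, of *TAX1BP1* and *CALCOCO2*, and of *TBK1* and *TRAF6* overlapped, and so did those of *NBR1* and *TAX1BP1*.

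Among 8868 genes with a mean of at least 10 CPM, the 5 whose log2(CPM + 0.5) followed *SQSTM1* most closely over the 6 libraries were *ACAT2*, *CLU*, *ATF5*, *PHF19* and *EPHX1* (Pearson r of 0.995 for the first and 0.993 for the last). The libraries fall into a lactate and a control group and also share the GC trends, so r describes likeness over these 6 points only. *CLU* encodes the secreted chaperone clusterin and was at 108, 89.6 and 87.8 CPM with lactate, against 169, 134 and 124 CPM in controls (log2 fold change -0.59, edgeR adjusted p = 0.0598). *ATF5*, a stress-response transcription factor, fell, with a log2 fold change of -0.91 (edgeR adjusted p = 0.0327) and means of 25.2 CPM with lactate and 47.2 CPM in controls. *EPHX1*, an epoxide hydrolase gene and NRF2 target, also fell. *KEAP1* had r = 0.85 with *SQSTM1* and *OPTN* 0.73, whereas *NBR1* had -0.99, close to the opposite pattern.

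The genes around these 9 are described from lists. In the first fit 3.88% of all tested genes were called lower and 5.03% higher, and each count stands beside these shares. In the ATG8 family, whose lipid-bound products are the docking sites of the receptors, 1 of 7 tested genes rose. This was *MAP1LC3A*, at 26.0, 15.9 and 17.5 CPM with lactate against 10.2, 6.52 and 5.43 CPM in controls (log2 fold change 1.41, SE 0.289, edgeR adjusted p = 0.0230), with its call held in 13 of 16 alternatives. The median of the family was 0.04. Of 21 other selective autophagy receptors 1 rose, the hypoxia-inducible mitophagy receptor gene *BNIP3*. It was at 219, 188 and 195 CPM with lactate against 87.8, 100.4 and 89.7 CPM in controls (log2 fold change 1.12, SE 0.139, edgeR adjusted p = 0.00409), and its call held in 16 of 16 alternatives. The median of the 21 was -0.02, equal to that of all tested genes.

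In the ULK1 complex, which starts autophagosome formation, edgeR called 0 of 5 genes. The complex had 1 gene at an unadjusted edgeR p under 0.05 (share of all tested genes not counted). It also had 1 called by DESeq2, of 2161 genes in all. Its genes with the highest expression were *ATG13* (123 CPM with lactate and 130 CPM in controls, log2 fold change -0.08, edgeR adjusted p = 0.775) and *C12orf44*, an older symbol of *ATG101* (117 CPM with lactate and 91.1 CPM in controls, log2 fold change 0.36, edgeR adjusted p = 0.391).

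Among 21 regulators of KEAP1 and NRF2, which include the ubiquitin ligase of KEAP1, small MAF proteins and BACH repressors, 2 rose. Of all tested genes 5.03% did. *SESN2*, a stress-inducible sestrin that binds p62 and KEAP1, was at 89.0, 80.8 and 79.5 CPM with lactate against 54.9, 44.2 and 38.9 CPM in controls (log2 fold change 0.85, SE 0.166, edgeR adjusted p = 0.0200), and its call held in 12 of 16 alternatives. *NFE2L3*, a relative of NRF2, was at 38.0, 41.8 and 50.8 CPM with lactate against 20.8, 24.5 and 25.9 CPM in controls (log2 fold change 0.88, SE 0.176, edgeR adjusted p = 0.0210), and its call held in 13 of 16. The median over the list was 0.11.

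NRF2 target genes had more negative than positive fold changes. Of 29 tested, 22 were negative, against 51.4% of all tested genes, and the median was -0.29. 3 fell and 1 rose, where 3.88% of all tested genes fell and 5.03% rose. *GCLM*, the modifier subunit of the enzyme that makes glutathione's precursor, was at 65.2, 67.5 and 58.8 CPM with lactate against 111, 127 and 129 CPM in controls (log2 fold change -0.94, SE 0.141, edgeR adjusted p = 0.00744). Its estimate shrank to -0.57 in the fit without the trend (edgeR adjusted p = 0.0394), and its call held in 14 of 16 alternatives. *EPHX1* was at 33.2, 23.1 and 25.5 CPM with lactate against 55.4, 43.6 and 40.5 CPM in controls (log2 fold change -0.77, SE 0.197, edgeR adjusted p = 0.0455), with its call held in 12 of 16. *ABCC3*, an efflux transporter gene, was also lower in each lactate library, with means of 4.84 CPM with lactate and 8.13 CPM in controls (log2 fold change -0.74, edgeR adjusted p = 0.0469). That call was near the threshold and held in only 6 of 15 alternatives, being lost with total library size, without a filter, with limma-voom, with the deepest library thinned and without any one library other than control replicate 1. The exception that rose was *SLC48A1*, a heme transporter gene, with means of 19.7 CPM with lactate and 12.2 CPM in controls (log2 fold change 0.69, edgeR adjusted p = 0.0450). Its call held in 10 of 16 alternatives, and its estimate was 0.43 with the trend removed.

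With the trend removed 11 of the 29 were called lower and 2 higher, beside the backgrounds of 11.5% and 10.0%, and the median stayed at -0.29. The genes most often read as NRF2 activity, *NQO1* and *HMOX1*, are added here after their values were seen. *NQO1* averaged 219 CPM with lactate and 319 CPM in controls (log2 fold change -0.54, edgeR adjusted p = 0.0957), and *HMOX1* averaged 21.0 CPM with lactate and 26.4 CPM in controls (log2 fold change -0.33, edgeR adjusted p = 0.348). In the fit without the trend *HMOX1* was called lower (-0.54, edgeR adjusted p = 0.0224) and *NQO1* was not (-0.45, edgeR adjusted p = 0.114), and over all alternatives the estimate for *HMOX1* ran from -0.54 to -0.10, with 1 of 16 calling it. *SQSTM1* was not counted in this list.

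**Figure D5:**
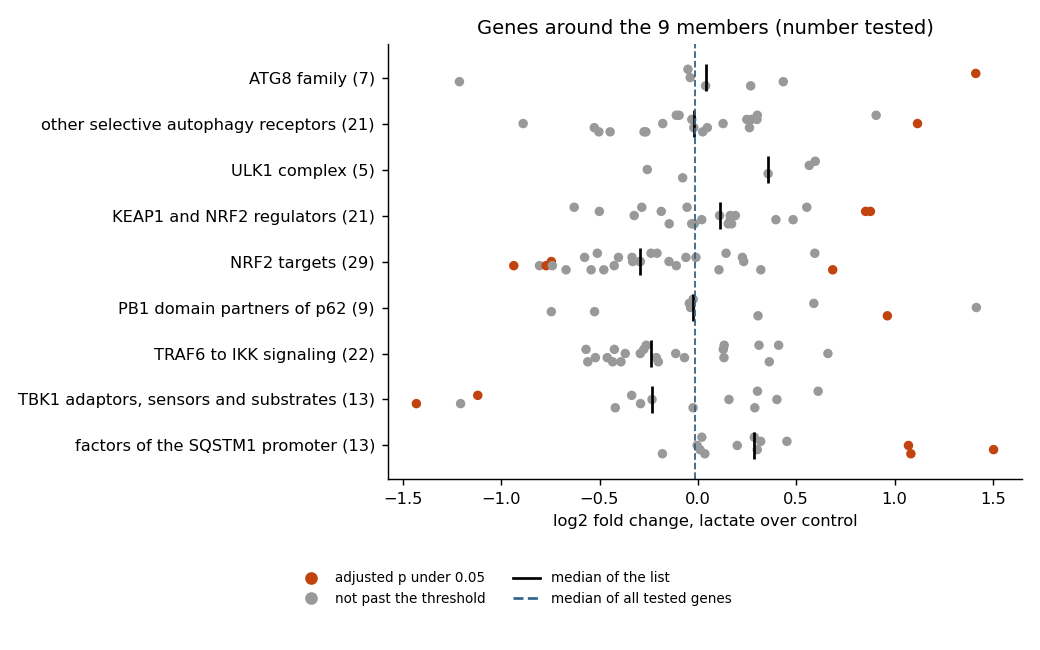
Log2 fold change of lactate over control (x axis) of each tested gene in 9 lists (rows, number tested in parentheses), colored where the edgeR adjusted p was under 0.05, with a bar at the median of each list and a dashed line at the median of all tested genes. The medians run from -0.29 for the NRF2 targets to 0.36 for the ULK1 complex. The row named for the *SQSTM1* promoter holds genes for FOS, JUN, ATF and BATF factors, TFEB and its relatives, and SP1.

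On the signaling side, p62 meets atypical protein kinase C and other kinases through its PB1 domain. Of 9 tested genes for such partners 1 rose, the polarity gene *PARD6G* (5.03% of all tested genes rose). It had means of 10.2 CPM with lactate and 5.20 CPM in controls and no overlap (log2 fold change 0.96, SE 0.228, edgeR adjusted p = 0.0357, call held in 11 of 15 alternatives). From TRAF6 to the IκB kinases, edgeR called 0 of 22 genes. At an unadjusted edgeR p under 0.05, 2 were higher and 5 lower (share of all tested genes not counted). DESeq2 called 1 lower, of 1057 genes lower in all. The median of the 22 was -0.24. The best expressed were *IRAK1*, a kinase upstream of TRAF6, and *TNIP1*, an inhibitor of NF-κB signaling. *IRAK1* averaged 1102 CPM with lactate and 1005 CPM in controls (log2 fold change 0.13, edgeR adjusted p = 0.650), and this estimate turned to -0.23 with the trend removed. *TNIP1* averaged 242 CPM with lactate and 292 CPM in controls (log2 fold change -0.28, edgeR adjusted p = 0.335), and was called lower with the trend removed (-0.54, edgeR adjusted p = 0.00296). Its estimate was -0.09 without control replicate 1. Once the trend was removed 5 of the 22 were called lower, *TNIP1* among them, where 11.5% of all tested genes were.

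Among 13 tested adaptors, sensors and substrates of TBK1, 2 fell (3.88% of all tested genes did). *DDX58*, which encodes the RNA sensor RIG-I, was at 2.94, 4.14 and 4.50 CPM with lactate against 7.84, 10.9 and 12.8 CPM in controls (log2 fold change -1.43, SE 0.259, edgeR adjusted p = 0.0154). *IKBKE*, the kinase gene most closely related to *TBK1*, was at 6.68, 7.69 and 6.35 CPM with lactate against 20.2, 12.3 and 12.4 CPM in controls (log2 fold change -1.12, SE 0.244, edgeR adjusted p = 0.0287). The groups of both genes did not overlap, and the calls held in 13 of 15 alternatives for *DDX58* and in 12 of 16 for *IKBKE*.

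Of 13 tested genes for FOS, JUN, ATF and BATF factors, TFEB and its relatives, and SP1, 3 rose (5.03% of all tested genes did). The median was 0.29 (0.02 with the trend removed). Whether each of these factors acts at the *SQSTM1* promoter was not tested. The calls of these 3 held in 12 of 16 alternatives for *ATF3* and in 10 of 15 each for *TFEB* and *BATF3*. *ATF3*, a stress-inducible factor that pairs with JUN proteins, was at 16.5, 21.6 and 20.8 CPM with lactate against 11.4, 7.95 and 8.35 CPM in controls (log2 fold change 1.08, SE 0.212, edgeR adjusted p = 0.0203). *TFEB*, a regulator of lysosome and autophagy genes, averaged 5.29 CPM with lactate and 2.51 CPM in controls (log2 fold change 1.07, SE 0.223, edgeR adjusted p = 0.0237). *BATF3*, a basic leucine zipper partner of JUN proteins, was rare, at 2.42, 1.94 and 2.09 CPM with lactate against 0.734, 1.00 and 0.551 CPM in controls (log2 fold change 1.50, SE 0.320, edgeR adjusted p = 0.0252). The fold changes of these 3 were positive and that of *SQSTM1* was negative, and a link between them was not tested. The FOS and JUN genes themselves did not pass the threshold, with *JUN* at a log2 fold change of 0.30 (edgeR adjusted p = 0.235). *FOS* was rare, with means of 1.82 CPM with lactate and 1.82 CPM in controls. The study places the effect of lactate in the chemical modification and DNA binding of FOS and JUN. Counts of mRNA do not measure either of these.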

How the data were processed

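Per the labels, mRNA was captured on poly(A) beads, made into strand-specific libraries and read from one end on an Illumina NextSeq instrument. The methods of the study describe only a 3′ mRNA kit, while the study lists RNA-seq and 3′ RNA-seq data separately. Levels per length take the labels as given. Without division by length the share of *SQSTM1* among the 5 receptors averaged 69.7% with lactate and 79.7% in controls. The table the authors deposited holds raw counts of reads by gene symbol, and the submitters' notes name STAR, DESeq2 and hg38. Versions, and whether strand was used in counting, are not given in the sources used here. Library totals ran from 20238653 to 46505372 counts, and the smallest replicate-pair chi-square was 7.13 per degree of freedom, so each pair of libraries differed by more than counting error.

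Counts of all 15924 symbols were fitted with edgeR 4.0.16 in R 4.3.3 (TMM, filterByExpr, robust quasi-likelihood F test, two-sided), and p-values were adjusted by Benjamini-Hochberg over the 13188 genes that passed the filter (called below 0.05). The intervals and SE come from the same fit, and the common biological coefficient of variation was 20.2%. Each gene's length and GC content came from its longest GENCODE 29 transcript, which need not be the one expressed. The trend on both was fitted per library by splines over 12151 tested genes that had them, and removed as an offset, which also removes any part of it that goes with the treatment. Ratios were tested by exact permutation over libraries. DESeq2 1.42.0, limma-voom (limma 3.58.1), other scalings and filters, and leaving out libraries were the alternatives.

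Named genes were the 9 members and, per list, up to 4 genes past the threshold with the largest change, or else the 2 with the highest mean expression. Members and lists were chosen with earlier results of these data known. The series describes its replicates as biological and gives no batch or day, so p-values measure the spread between these libraries of 1 line.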

Additional observations from a re-analysis of the deposited data

How the results depend on the processing

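*SQSTM1* kept its direction in 16 of 16 alternatives and its call in 13 of 16, and all 9 genes kept the sign of their fold change in every alternative that tested them. Without a single library in turn, the log2 fold change ran from -1.12 to -0.78 for *SQSTM1*, from -0.63 to -0.47 for *OPTN*, from -0.75 to -0.48 for *TAX1BP1* and from -0.83 to -0.40 for *NFE2L2*. It ran from 0.31 to 0.46 for *NBR1*, from -0.42 to -0.18 for *CALCOCO2* (lowest in size without lactate replicate 1), from -0.55 to -0.15 for *KEAP1* (without lactate replicate 1 and without control replicate 1), from -0.59 to -0.23 for *TRAF6* (without control replicates 1 and 3) and from -0.80 to -0.38 for *TBK1* (without control replicate 1 and without lactate replicate 1), none of these past the threshold. Under the same settings between 0 and 4 of the 9 genes were called, of 142 to 2965 genes in all (75 to 1428 higher and 67 to 1537 lower), against 1176 with all libraries (664 higher and 512 lower). The fewest calls came without control replicate 2 and the most without control replicate 1.

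Without replicate 1 of both groups, 9 of the 9 genes were called, of 6348 genes in all (3039 higher and 3309 lower), with log2 fold changes of -0.93 for *SQSTM1*, 0.38 for *NBR1*, -0.50 for *OPTN*, -0.60 for *TAX1BP1*, -0.28 for *CALCOCO2*, -0.35 for *KEAP1*, -0.69 for *NFE2L2*, -0.46 for *TRAF6* and -0.56 for *TBK1*. The GC trend was kept in that fit and differed between its groups, so trend and treatment cannot be told apart in it. With the GC and length trend removed 5 of the 9 were called, of 2838 genes in all (1324 higher and 1514 lower), and *NBR1* (0.52), *TAX1BP1* (-0.60) and *KEAP1* (-0.65) entered. There *IRAK1* turned to -0.23. DESeq2 called 2161 genes (1104 higher and 1057 lower) and added *TAX1BP1* (-0.60). *OPTN* lost its call with total library size (-0.57), without a filter (-0.57) and on genes of at least 10 CPM (-0.56), leaving 1 of the 9 called in each. The last of these called 654 genes (385 higher and 269 lower), since fewer genes were tested. *ATG13* ran from -0.15 to 0.049 without a single library, turning positive without control replicate 1.

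The difference in the ratio of *KEAP1* to *NFE2L2* (0.22, lactate minus control) turned to -0.81 with the trend removed and ran from -0.89 to 1.84 without a single library, so it had no stable sign. The ratios with the trend removed, and an edgeR fit without robust estimation, which called 2 of the 9 genes, were chosen after seeing the data. The causes of these shifts were not tested. No paired analysis was possible because the labels give no replicate numbers, and the numbers used here only name the libraries in accession order. Groups of 3 libraries limit exact tests to p = 0.1, and the 66 counts of *TBK1* in its lowest library limit the precision for that gene.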
